A study of Mus musculus with 12 samples.

Results

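The genes described here make and load MHC class II, the surface complex that shows peptides to CD4 T cells. They are Cd74, H2-Aa, H2-Ab1, H2-Eb1, H2-DMa, H2-DMb1 and Ciita, 7 genes chosen by name from the 19369 genes of the deposited tables, and all 7 were measured in every library. They were followed through the dendritic cells, macrophages, B cells and tumour cells of the authors' annotation. The samples came from 6 tumours grown in the mammary fat pad of female BALB/c mice, with an age of 9 to 11 weeks given in the labels. Each tumour was grown from 4T1 cells, a mouse mammary carcinoma line: 5 tumours came from clones, each derived from a single cell and called E, M, EM1, EM2 or EM3, and 1 came from the parental line. Each of them has a Total library, made without selection of cells, and a CD45 library, made from leukocytes enriched on magnetic beads, which gives 12 single-cell libraries. The labels do not say whether a tumour stands for 1 animal or a pool. The groups differ in the implanted cells, and no treatment is labelled. Each clone is 1 clone with 1 tumour, so no test between tumours was possible, and every interval below covers counting error only.

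Class II molecules are pairs of an alpha and a beta chain. H2-Aa and H2-Ab1 encode the chains of I-A, and H2-Eb1 encodes the beta chain of I-E. Cd74, the invariant chain, binds newly made pairs and steers them to the endosome, where a remnant of it is exchanged for antigen peptide with the help of H2-DM, whose chains are encoded by H2-DMa and H2-DMb1. Ciita is the transactivator that switches these genes on. It does not bind DNA itself but joins proteins that hold the X and Y boxes of their promoters. Dendritic cells, B cells and macrophages are the professional class II presenting cells, and interferon gamma is the textbook inducer of Ciita.

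In the GRCm38 annotation, 5 of the genes lie in the MHC on chromosome 17: H2-DMa at chr17:34119541-34139101, H2-DMb1 at chr17:34153072-34160230, H2-Ab1 at chr17:34257689-34269419 and H2-Eb1 at chr17:34305867-34316674, all on the plus strand, and H2-Aa at chr17:34282744-34287823 on the minus strand. Ciita lies at chr16:10480059-10528418 on the plus strand, and Cd74 lies outside the MHC. RefSeq promoter entries were matched for H2-Aa, H2-Eb1, H2-DMa and H2-DMb1, while H2-Ab1, Cd74 and Ciita had no entry in the table used. The sequences below are from RefSeq on GRCm38.p6, 5′ to 3′ on the strand of the gene. They are shown because these genes are the textbook case of promoters that share a spaced pair of motifs. The capitals mark GNAAC, the core letters of the X box, and ATTGG, those of the Y box. H2-Aa is read from the minus strand at chr17:34287847-34287924, H2-Eb1 from the plus strand at chr17:34305756-34305832, and H2-Ob, which encodes a chain of the H2-DM inhibitor H2-O, from the plus strand at chr17:34238798-34238872.
H2-Aa: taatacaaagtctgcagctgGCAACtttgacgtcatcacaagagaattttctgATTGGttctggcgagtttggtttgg
H2-Eb1: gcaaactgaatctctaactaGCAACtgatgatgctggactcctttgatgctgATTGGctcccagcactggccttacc
H2-Ob: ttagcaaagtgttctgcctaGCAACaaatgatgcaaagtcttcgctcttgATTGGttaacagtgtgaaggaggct

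The motif pair was searched as GNAAC followed by ATTGG at a distance of 12 to 40 bases. The windows were the 250 bases before the starts of the RefSeq entries, which can differ from the gene starts printed above. The gap was 28 bases in H2-Aa, 27 in H2-Eb1 and 25 in H2-Ob. H2-DMb1 held the pair as well, with a gap of 28 bases, in a window that runs past its printed start (chr17:34152941-34153190). Neither of the H2-DMa windows held it. Both lie inside the printed span of that gene, at chr17:34122582-34122831 and chr17:34125268-34125517. The bases before the printed H2-DMa start were not searched. On the strand of the gene the pair was found in 645 of 32851 promoter windows (1.96%), and on either strand in 1274 (3.88%). A match describes letters in a window and not a bound site. The reference genome is of the C57BL/6J strain, which carries the H2-b haplotype, whereas BALB/c mice carry H2-d. The letters printed for these genes may therefore differ in the tumours, and the part of that difference in the measured levels of the polymorphic H2 genes, also relative to Cd74, was not tested.

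The gene tables held 28083101 to 122055131 UMIs (unique molecular identifiers, each marking 1 captured molecule) per library, in 6709 to 13467 cells. No cell barcode was shared in full by libraries that share droplets. The first 16 bases, which mark the droplet, fell into 4 sets of libraries that share many of them: both libraries of E with both of EM3, both of EM1 with both of EM2, both of M, and both of the parental tumour. The 14 pairs of libraries within a set shared 818 to 1760 droplet barcodes, and the 52 other pairs 46 to 211. M and the parental tumour each stood alone in a set, so that tumour and set cannot be told apart for them. Levels are given as CPM, a gene's share of all UMIs of a class in 1 library scaled to a total of 1000000. H2-DMb1 and H2-DMb2 are similar neighbours, so reads could be split between them and their values are uncertain to that extent.

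The annotated classes were checked against marker genes. Summed CPM of 8 macrophage markers was 9291 to 15220 in CD45 macrophages, and all 8 were above 50 CPM in the median tumour. Summed CPM of 5 B cell markers was 3400 to 8635 in CD45 B cells, with a median of 4412. Plasma cell markers summed to 766.9 to 18100 CPM there, with a median of 3750, so CD45 B values are sums over B and plasma cells. In tumour cells the summed CPM of 5 epithelial markers was 2121 to 10950, with Krt8 at 1197 to 3077 CPM, while Epcam ranged from 4.73 CPM in EM3 to 1583 CPM in E. Dendritic cells carried 2852 to 5273 CPM of 8 dendritic markers in the CD45 libraries, but also 1941 to 7411 CPM of macrophage markers, against 421.6 to 1410 CPM in Total dendritic cells. C1qa, a complement gene of macrophages, was at 600.6 to 3105 CPM in CD45 dendritic cells and 59.6 to 474.1 CPM in Total ones. The part of those markers in the dendritic cell values was not tested, and values from dendritic cells with no macrophage UMI are given beside the result they touch. The B class of the Total libraries also carried 2209 to 9022 CPM of plasmacytoid dendritic cell markers, against 270.8 to 557.6 CPM in CD45 B cells. The B cell markers in that Total class summed to 1994 to 5014 CPM, with a median of 2627, below the medians of the plasmacytoid markers (4786 CPM) and of 4 plasma cell markers (4362 CPM). Total B values, including their place against other classes for Ciita, are sums over this mixture, and values of E split by plasmacytoid markers are given with the B cell subtypes.

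Dendritic cells held the highest level of the invariant chain and of all 3 class II chains in every tumour. In the CD45 libraries Cd74 stood at 22349 CPM in dendritic cells of E, 23956.5 (EM1), 25673 (EM2), 22069 (EM3), 30047 (M) and 22684 (parental). B cells held Cd74 at 11988.5, 10361, 17635, 10846, 10359 and 19974 CPM in the same order. Macrophages held it at 18137, 20885, 16942, 13362, 7296 and 6748 CPM. The ranges of dendritic cells and macrophages did not overlap, whereas those of macrophages and B cells did. T cells (347.1 to 1593 CPM) and granulocytes (423.1 to 2459 CPM) lay below all 3 presenting classes and overlapped each other. The fold of dendritic cells over macrophages varied with the tumour, from 1.15 in EM1 to 4.12 in M for Cd74.

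The chains followed the same order. H2-Aa ranged from 12845 to 22333 CPM in CD45 dendritic cells, from 2978 to 10896 in macrophages and from 5060 to 12741 in B cells. H2-Ab1 ranged from 8074 to 11698.5 CPM, from 1486 to 5766 and from 2339 to 5458 in these classes. H2-Eb1 ranged from 12809 to 19753 CPM, from 2170 to 9495 and from 4045 to 8881. Macrophages stood above the B class for Cd74 and the 3 chains in 3 of 6 tumours, by up to 2.09-fold for H2-Eb1 in EM1, and below it in the other 3, among them the parental tumour. The B class includes plasma cells, which held 671496 of its 1334360 UMIs in EM1 and 268033 of 646454 in E. In EM1 its subtype annotated Cd44-MHCIIhi B held H2-Aa at 13021 CPM, above macrophages, but H2-Eb1 at 9451 CPM and Cd74 at 20749 CPM, just below them. In E this subtype held H2-Eb1 at 9538 CPM and Cd74 at 19979 CPM, above macrophages. Its name already uses class II, and the order of macrophages and B cells without plasma cells was not tested. Cd74 and the 3 chains were highest in dendritic cells in 6 of 6 Total libraries too. Classes are the authors' annotation, drawn from the same expression values, so this order is a description.

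The peptide exchange genes and the transactivator were ordered differently. H2-DMa was highest in macrophages in 4 of 6 CD45 and 5 of 6 Total libraries, and B cells were the lowest of the 3 presenting classes in all 12. H2-DMb1 was highest in dendritic cells in 5 of 6 CD45 and 6 of 6 Total libraries. Ciita was highest in B cells in 5 of 6 CD45 libraries, with 71.2 CPM (E), 66.7 (EM1), 93.2 (EM2), 69.6 (EM3), 70.3 (M) and 50.8 (parental). Dendritic cells held Ciita at 74.95, 42.1, 55.8, 52.8, 47.0 and 35.5 CPM in the same order. Macrophages held it at 11.3, 15.6, 14.6, 12.3, 4.93 and 2.58 CPM, the lowest of the 3 classes in 6 of 6 CD45 libraries and without overlap with either. In the Total libraries dendritic cells led for Ciita in 4 tumours and B cells in 2. Total B cells of EM3 had 0 Ciita UMIs in 35 cells, which allows a level of up to 34.7 CPM by the limit of 3 counts.

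**Figure D1:**
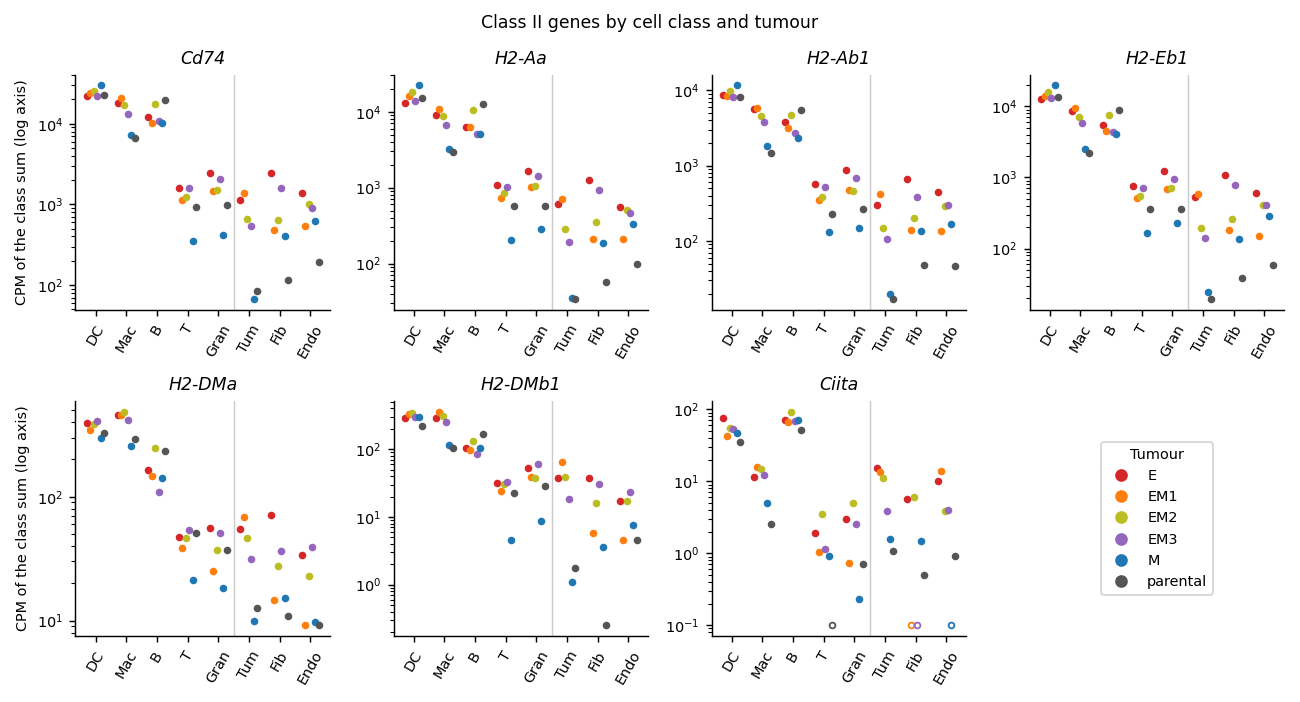
CPM on a log axis of each of the 7 genes in class sums of at least 30 cells, 1 point per tumour, with dendritic cells, macrophages, B cells, T cells and granulocytes of the CD45 libraries left of the line and tumour cells, fibroblasts and endothelial cells of the Total libraries right of it; open circles at 0.1 are sums with 0 UMIs. Dendritic cells lead for Cd74, H2-Aa, H2-Ab1 and H2-Eb1, B cells and dendritic cells lead for Ciita, and the points of M and the parental tumour lie low in macrophages and tumour cells.

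Ciita was counted against the transcripts of its target Cd74 within each class, as UMIs per 1000 Cd74 UMIs. The median over the 6 CD45 libraries was 6.18 in B cells (2.55 to 6.79), 1.97 in dendritic cells (1.56 to 3.35) and 0.710 in macrophages (0.382 to 0.924). The macrophage range lay below both others. H2-DMa had the opposite order, with a median of 29.9 UMIs per 1000 Cd74 UMIs in macrophages (22.0 to 43.4), 14.8 in dendritic cells (9.85 to 18.4) and 13.7 in B cells (9.99 to 14.3). For H2-Ab1 the median was 371 in dendritic cells (355 to 389) and 273 in macrophages (220.2 to 312), again without overlap. These proportions set macrophages apart from dendritic cells in every tumour, while dendritic cells and B cells overlapped for Ciita and H2-DMa.

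In macrophages the class II genes separated the tumours. In the CD45 libraries their levels were highest in E, EM1 and EM2, lower in EM3 and lowest in M and the parental tumour, except that Ciita in EM3 and E differed by less than counting error (ratio 1.09, 0.952 to 1.24). M and the parental tumour were the lowest for all 7 genes in the Total libraries too, but there H2-DMb1 was higher in EM3 than in E (256.7 and 241.4 CPM, ratio 1.06, 1.03 to 1.10) and H2-DMa differed by less than counting error (420.7 and 410.9 CPM). H2-Eb1 stood at 8684 CPM (E), 9495 (EM1), 6986 (EM2), 5760 (EM3), 2528.5 (M) and 2170 (parental), a range of 4.37-fold. H2-Aa stood at 8986, 10896, 8891, 6691, 3245 and 2978 CPM, and H2-Ab1 at 5652, 5766, 4567, 3836, 1818 and 1486 CPM. M and the parental tumour were the lowest 2 tumours for each of these chains. H2-DMb1 followed with 284.4, 360.5, 312.0, 252.0, 114.4 and 105.9 CPM. H2-DMa varied least, with 457.7, 459.8, 487.8, 413.5, 255.6 and 292.6 CPM and a range of 1.91-fold. H2-Aa and H2-Ab1 ranged by 3.66-fold and 3.88-fold. The range was 3.10-fold for Cd74 and 6.04-fold for Ciita. In bulk sums over a class, fewer cells that carry a transcript and less of it per cell cannot be told apart, which the counts per cell below address.

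Levels in M were set against those in E. Called means at least 2-fold apart after adding 10 CPM to both values, among genes with at least 50 CPM in either tumour. In CD45 macrophages 5 of the 6 class II genes over that minimum were at least 2-fold lower in M, where 3.49% of 4209 genes were lower by as much. Cd74 was 2.49-fold lower in M (95% interval 2.47 to 2.5), H2-Aa 2.77-fold (2.75 to 2.79), H2-Ab1 3.11-fold (3.07 to 3.14), H2-Eb1 3.43-fold (3.40 to 3.47) and H2-DMb1 2.49-fold (2.38 to 2.60). H2-DMa, the exchange chain that was not past the fold, was 1.79-fold lower (1.73 to 1.85). Ciita was under the minimum and 2.30-fold lower (1.84 to 2.90). On the log2 scale the median over the 7 genes was -1.31, against 0.17 over all genes. With TMM factors both medians moved down, to -1.61 and -0.13, and their distance stayed at -1.48. In the Total libraries 5 of 6 were again at least 2-fold lower in M, beside 3.82% of all genes. E and M lie in different sets of libraries, so the tumour cannot be told apart from the set in this comparison.

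EM3 and E share a set. In CD45 macrophages 0 of 6 class II genes were past 2-fold between them (1.28% of all genes either way, and 0.681% at least 2-fold lower in EM3). H2-Eb1 in EM3 was 0.663 of its level in E (0.660 to 0.667), Cd74 0.737 (0.734 to 0.739) and H2-DMa 0.904 (0.884 to 0.923). The median log2 difference over the 7 genes was -0.42, against 0.05 over all genes. Cd74 and the 3 chains were lower in EM3 under each of 7 alternative settings, while H2-DMa and H2-DMb1 were above 0 in 1 of the 7 and Ciita in 6 of the 7. EM1 and EM2, which share another set, also had 0 of 6 past 2-fold (0.49% of genes either way), with H2-Eb1 1.36-fold higher in EM1 (1.35 to 1.37). Between the parental tumour and M 0 of 6 were past 2-fold (1.37% either way). There the chains and Cd74 were lower in the parental tumour, with H2-Ab1 at 0.817 of M (0.805 to 0.830), and H2-DMa was 1.14-fold higher (1.10 to 1.19). The comparisons M over E and EM3 over E share the E libraries, and M over E and parental over M share those of M.

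In dendritic cells Cd74 and the chains were higher in M than in E. In CD45 dendritic cells 0 of 7 class II genes were past 2-fold between M and E (6.55% of all genes either way). Cd74 was 1.34-fold higher in M (1.32 to 1.37), H2-Aa 1.74-fold (1.70 to 1.78), H2-Ab1 1.36-fold (1.32 to 1.40) and H2-Eb1 1.54-fold (1.51 to 1.58). H2-DMb1 differed by less than its counting error, at 1.04-fold (0.872 to 1.24). H2-DMa was at 0.745 of E (0.628 to 0.880) and Ciita at 0.627 (0.400 to 0.948). The median log2 difference was 0.43 over the 7 genes and -0.03 over all genes. The M dendritic cells numbered 97 and those of E 315. For EM3 over E 0 of 7 genes were past 2-fold (1.26% of all genes either way), for EM1 over EM2 0 of 7 (1.6%) and for the parental tumour over M 0 of 6 (5.68%). In the last of these Cd74 stood at 0.755 of its level in M (0.739 to 0.771) and H2-Aa at 0.675 (0.658 to 0.693).

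Macrophage markers differed between these dendritic cells as well, with C1qa at 1635 CPM in E and 600.6 in M. In dendritic cells with no UMI of C1qa, C1qb, Ms4a7 and Adgre1, a subset chosen after seeing the data, Cd74 stood at 25026 CPM in E (90 cells) and 30703 in M (41 cells), and H2-Aa at 15985 and 23837 CPM. H2-Ab1 stood at 10912 and 12715 CPM there and H2-Eb1 at 15842 and 21700 CPM. Lower in M were H2-DMb1 (374.2 and 270.0 CPM), H2-DMa (360.6 and 243.0 CPM) and Ciita (111.1 and 49.5 CPM, on 49 and 11 UMIs), and Ciita was the 1 gene of the 7 past 2-fold, beside 9.04% of all genes. The median log2 difference over the 7 genes was 0.22 in this subset. In the Total libraries the 4 genes were also higher in M, by less: Cd74 1.10-fold (1.08 to 1.13), H2-Aa 1.33-fold (1.30 to 1.37), H2-Ab1 1.08-fold (1.05 to 1.11) and H2-Eb1 1.13-fold (1.11 to 1.16). Ciita was the 1 gene of the 7 past 2-fold there, 2.52-fold lower in M (1.68 to 3.87), where 5.6% of genes were past 2-fold either way. It was past 2-fold in Total dendritic cells of EM3 as well, at 0.379 of its level in E (0.246 to 0.572), where 1.7% of genes were. Ciita was at 119.75 CPM in Total dendritic cells of E, 47.5 in M and 45.4 in EM3. It thus reached the 50 CPM minimum through E alone in these comparisons, as in M over E of the subset, and the calls depend on the E value. Cd74 and the chains were above E in M under each of 8 alternative settings, and Ciita and H2-DMa below E in each of them. Whether the difference between macrophages and dendritic cells exceeds the spread between tumours of a clone was not tested.

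Dendritic cells were split after seeing the data into cells with at least 2 UMIs of Ccr7, the receptor that guides migrating dendritic cells, and no UMI of Xcr1, Clec9a and Cd209a, and cells with the reverse. Cd74 in the Ccr7 cells of the CD45 libraries stood at 21044 CPM (E), 18477 (EM1), 20724 (EM2), 17712 (EM3), 27555 (M) and 18679 (parental). Cells with conventional markers held 25541, 30850, 28007, 24006, 30941 and 25689 CPM, higher in 6 of 6 tumours. H2-DMa in Total dendritic cells was 190.1, 237.0, 204.5, 161.3, 151.9 and 206.5 CPM on the Ccr7 side and 365.5, 419.1, 545.8, 504.6, 253.5 and 468.5 CPM on the conventional side. Total sums of the conventional side held as few as 3 cells. Cd74 of the Ccr7 cells was highest in M, while on the conventional side M and EM1 were nearly level.

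**Figure D2:**
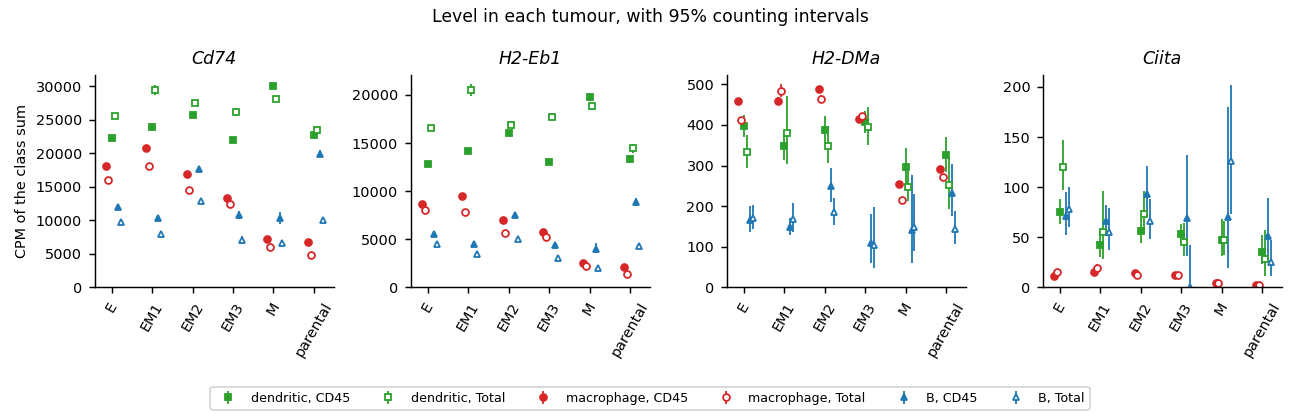
CPM of Cd74, H2-Eb1, H2-DMa and Ciita in dendritic cells, macrophages and B cells of each tumour, filled for CD45 and open for Total libraries, with 95% counting intervals. Macrophage points of M and the parental tumour are the lowest for Cd74 and H2-Eb1, while among the CD45 dendritic cell points those of M are the highest for both genes.

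Counts per cell showed how the macrophage sums were made up. The UMIs of H2-Aa, H2-Ab1 and H2-Eb1 were added after each cell was thinned to 1000 UMIs. The median CD45 macrophage carried 21 (E), 27 (EM1), 20 (EM2), 12 (EM3), 1 (M) and 1 (parental). The share of macrophages with 0 chain UMIs was 7.99%, 5.44%, 11.7%, 12.1%, 43.3% and 41.0% in the same order. The share with 20 or more was 51.9%, 65.8%, 50.3%, 37.1%, 16.5% and 13.7%. M and the parental tumour thus had more macrophages without a chain UMI and fewer with many. T cells, which are low in class II in mice, carried a median of 0 to 2 and reached 20 or more in 0% to 0.234% of cells, and granulocytes in 0%. The share of T cells with 0 chain UMIs was 11.9% (E), 25.6% (EM1), 26.8% (EM2), 12.7% (EM3), 62.9% (M) and 48.0% (parental). It was thus highest in M and the parental tumour too, and in EM3 close to that of macrophages. The part of free RNA in the macrophage shares was not tested.

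Free RNA gives UMIs in droplets of cells that do not express a gene, so the shares of cells with any UMI were set beside those of T cells. After thinning, 84.4% of E macrophages and 49.4% of M macrophages had an H2-Aa UMI, against 65.9% and 18.6% of T cells in the same libraries. Without thinning the shares were 97.0% and 67.6% in macrophages and 86.1% and 24.9% in T cells, at median depths of 6029.5 and 7675.5 UMIs per macrophage and 1712.5 and 1391.5 per T cell. Macrophages stood above T cells in both tumours. The T cell share itself was lower in M.

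Macrophages were also described by ranges of their chain UMIs. Among CD45 macrophages with 20 or more chain UMIs, a range set after seeing the data and not a cell type, Cd74 stood at 26210 CPM in E (2643 cells), 26390 for EM1, 26290 for EM2, 22920 for EM3, 23330 for M (418 cells) and 22830 for the parental tumour (470 cells). The range was chosen by the chains, with which Cd74 and the H2-DM genes move, so a smaller difference between tumours is built into it and the values are descriptions. Cells with 15 to 24 chain UMIs, close to that limit, numbered 754 in E and 246 in M. H2-DMb1 in the same cells was 410.2 CPM in E and 378.8 in M, and H2-DMa 589.7 and 447.3 CPM. H2-DMa was measured in macrophages with 0 chain UMIs, at 154.1 CPM in E and 164.1 in M, where Cd74 stood at 1206 and 550.4 CPM.

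Other genes differed along the same ranges. Cxcl9, a chemokine induced by interferon gamma, stood at 43.8, 90.8 and 252 CPM in E macrophages with 0, 1 to 19 and 20 or more chain UMIs, and at 4.03, 40.7 and 77.1 CPM in M, and was highest in the last range in 6 of 6 CD45 and 5 of 6 Total libraries, the exception being the parental tumour (3.44, 40.8 and 32.2 CPM). Arg1, the arginase of suppressive macrophages and chosen after its values were seen, had the reverse order, with 5466, 4798 and 3061 CPM in E and 2139, 1462 and 699 CPM in M. Mrc1, the mannose receptor, stood at 468.3, 711.5 and 938.4 CPM along the ranges in E but at 1608, 1189 and 1010 CPM in M, and the other 4 tumours had the order of M. C1qa had no common order. It stood at 1484, 2613 and 4447 CPM in E and at 5295, 5683 and 5915 CPM in M, but at 5240, 4961 and 4442 CPM in the parental tumour, and in the Total library of M at 5682, 5887 and 5625 CPM. These values have no replicate and are descriptions.

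**Figure D3:**
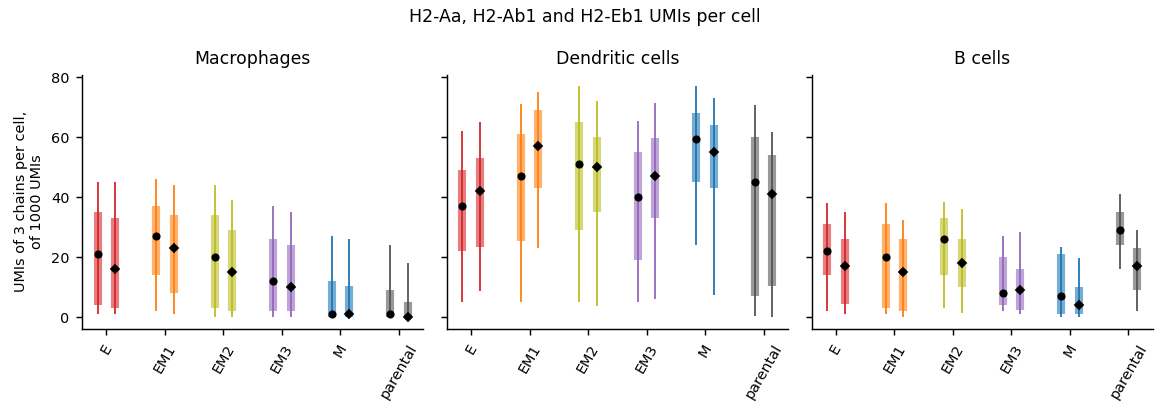
UMIs of H2-Aa, H2-Ab1 and H2-Eb1 per cell of 1000 UMIs in macrophages, dendritic cells and B cells, with the median as a circle (CD45) or diamond (Total), thick bars from the 25th to the 75th percentile and thin bars from the 10th to the 90th. The macrophage medians of M and the parental tumour are at 0 or 1, while their dendritic cell medians are at 41 to 59.5.

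Dendritic cells held a median of 37 chain UMIs in E, 47 (EM1), 51 (EM2), 40 (EM3), 59.5 (M) and 45 (parental). The parental dendritic cells were the most spread, with 10.3% at 0 chain UMIs, where the other 5 CD45 libraries had 0.660% to 4.67%. In B cells the medians were 22, 20, 26, 8, 7 and 29, so that EM3 and M were low and the parental tumour high. The M value rests on 29 thinned B cells.

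B cells differed by their annotated subtype. The subtype that the authors call Cd44-MHCIIhi B, a name that already uses class II, held Cd74 at 16108 to 21992 CPM and Ciita at 42.6 to 151 CPM over the 6 CD45 libraries. The highest Ciita value, that of M, rests on 4 UMIs in 18 cells (interval 41.1 to 386), and the lowest, of the parental tumour, on 9 UMIs. The Cd25+Cd69+ B subtype held Cd74 at 4149 to 7633 CPM. It made up 50 of 91 B cells in EM3 and 19 of 42 in M, but 5 of 221 in the parental tumour. Plasma cells, which switch class II off as they mature, held Cd74 at 1981 CPM in EM1 (107 cells), 4455 in E (35 cells) and 4886 in EM2 (19 cells), and Ciita at 8.94, 26.1 and 9.24 CPM, on 6, 7 and 1 UMIs. The other CD45 libraries had at most 2 plasma cells. Cd74 of plasma cells in E and EM2 thus lay within the range of the Cd25+Cd69+ B subtype, and in EM1 below it. In the Total libraries, cells of the B class with a UMI of a plasmacytoid marker (Siglech, Ccr9 or Klk1) and none of a B marker held Cd74 at 6911 CPM in E, against 10884 CPM in cells with a B marker alone, and Ciita at 10.8 against 102 CPM.

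Annotated tumour cells held less than dendritic cells, macrophages and B cells of the same Total library for 6 of the genes in 6 of 6 tumours and for Ciita in 5 of 6, the exception being EM3 with its 0 Ciita UMIs in B cells. Cd74 stood at 1146 CPM in tumour cells of E, 1394 (EM1), 666.6 (EM2), 536.1 (EM3), 67.3 (M) and 85.1 (parental), a range of 20.7-fold. H2-Eb1 stood at 526.3, 589.7, 191.9, 139.1, 24.2 and 19.6 CPM in the same order. H2-DMb1 stood at 37.5, 64.9, 39.3, 18.1, 1.10 and 1.78 CPM, and Ciita at 15.1, 13.3, 11.1, 3.84, 1.57 and 1.08 CPM. E, EM1 and EM2 were high and M and the parental tumour low for all 4 genes. Dendritic cells exceeded tumour cells for Cd74 by 21.2-fold in EM1 and by 419-fold in M.

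T and NK cells of the same Total library, which should lack class II, served as the background. Their Cd74 level was 1150 CPM (E), 521.9 (EM1), 661.6 (EM2), 1133 (EM3), 275.4 (M) and 270.7 (parental). Tumour cells were above it by CPM in EM1, nearly level with it in E and EM2, and below it in EM3, M and the parental tumour. After thinning, the share of tumour cells with a Cd74 UMI was 57.7% (E), 61.7% (EM1), 36.8% (EM2), 38.0% (EM3), 5.45% (M) and 7.69% (parental), against 68.1%, 36.3%, 44.7%, 66.7%, 24.2% and 23.8% of T and NK cells. On that measure EM1 alone stood above background. Unthinned shares were 97.2%, 94.0%, 88.7%, 95.8%, 42.0% and 45.0% of tumour cells. Tumour cells had medians of 6539 to 15268 UMIs per cell, against 1098.5 to 2087 in T and NK cells, so that CPM sets a droplet's UMIs against very different totals in the 2 classes.

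UMIs per cell were compared as well, a measure added after seeing the data. C1qa, a macrophage gene that neither class should make, was at 0.703 UMIs per tumour cell and 0.590 per T or NK cell in E, at 0.153 and 0.1315 in EM1 and at 1.29 and 1.29 in EM3. Over the 6 tumours its ratio of tumour cells to T and NK cells was 1.00 to 1.44. The ratio for Apoe was 1.06 to 1.97. Cd74 was at 13.2 UMIs per tumour cell and 0.707 per T or NK cell in EM1, a ratio of 18.6 (17.5 to 19.8), and at 10.15 and 0.921 in EM2, a ratio of 11.0 (10.4 to 11.6). The ratio was 2.77 (E), 2.805 (EM3) and 3.07 (parental), and for M it was 1.68 with an interval of 1.55 to 1.83. It was above the ratios of C1qa and Apoe of the same library in all 6 tumours, most in EM1 and EM2, and closest to them in M, where Apoe was at 1.45. The ratios went with the sets of libraries: E and EM3 share a set and had 2.78 and 2.835 Cd74 UMIs per T or NK cell, several times the background of EM1 and EM2, which share another. Tumour and set cannot be told apart in the comparison of these ratios.

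The same ratio was 14.2 in EM1 and 6.40 in EM2 for H2-Aa, and 17.2 and 6.44 for H2-Eb1. In M it was 1.11 (1.01 to 1.23) for H2-Aa and 1.15 (1.02 to 1.30) for H2-Eb1, near that of C1qa, 1.10 (0.992 to 1.21). H2-DMa was above the macrophage genes in all 6 tumours, with ratios of 3.94 (E), 16.9 (EM1), 17.5 (EM2), 4.25 (EM3), 5.54 (M) and 3.45 (parental). H2-DMb1 was 22.7 in EM1 and 14.01 in EM2, but 1.39 in M with an interval that spans 1 (0.747 to 2.81). Ciita was 16.2 in E (9.74 to 28.4), 31.8 in EM1 (14.4 to 87.1) and 81.6 in EM2 (27.8 to 397), on 19, 6 and 3 UMIs in T and NK cells. It was 11.9 in EM3 (4.95 to 37.3) and 3.74 in the parental tumour (1.24 to 18.5). In M it was 23.8, with an interval from 4.175 to 948.5, on 1 Ciita UMI in T and NK cells. Granulocytes gave Cd74 ratios of 2.97 (E), 16.7 (EM1), 11.0 (EM2), 3.18 (EM3), 1.70 (M) and 2.56 (parental), with EM1 and EM2 again the highest.

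**Figure D4:**
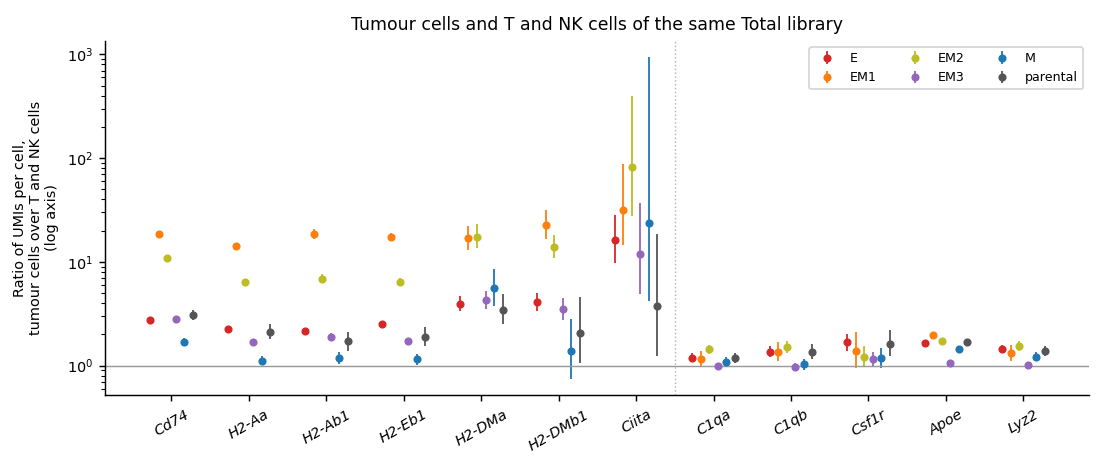
Ratio of UMIs per cell in tumour cells to UMIs per cell in T and NK cells of the same Total library, on a log axis, with 95% counting intervals, for the 7 class II genes left of the dotted line and for 5 macrophage genes right of it. Ratios of the macrophage genes stay under 2, while class II ratios of EM1 and EM2 lie above 6, and those of H2-Aa, H2-Ab1 and H2-Eb1 in M lie near 1.

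Chain UMIs were then counted in single tumour cells. After thinning to 1000 UMIs, the share of tumour cells with 0 chain UMIs was 32.8% (E), 37.6% (EM1), 69.7% (EM2), 66.9% (EM3), 93.3% (M) and 92.6% (parental), against 21.1%, 51.6%, 44.5%, 24.7%, 66.0% and 72.6% of T and NK cells, so that EM1 alone had fewer such cells than its background. Without thinning, at median depths of 6539 (E), 9689 (EM1), 14764 (EM2), 15268 (EM3), 13228 (M) and 13134 (parental) UMIs, tumour cells with 10 or more chain UMIs numbered 1370 of 2865 for EM1 (47.8%, exact interval 46.0 to 49.7), 211 of 777 for E (27.2%), 723 of 3334 for EM2 (21.7%), 307 of 1968 for EM3 (15.6%), 29 of 4707 for M (0.616%) and 75 of 5929 for the parental tumour (1.27%). Of those cells in EM1, 1052 (76.8%) had no UMI of Csf1r, C1qa and C1qb. Among EM1 tumour cells with fewer chain UMIs the share was 79.3% (1186 of 1495). In EM3 it was true of 24 of the 307 (7.82%) and of 233 of the 1661 other tumour cells (14.03%), so that the share differed more between these tumours than between cells with many and few chain UMIs. Among tumour cells with no UMI of Ptprc, Csf1r, C1qa, S100a8 and S100a9, Cd74 stood at 1383 CPM in EM1 (1368 cells) and 634 in EM2 (922 cells), and at 43.3 in M (109 cells) and 66.7 in the parental tumour (1067 cells). Ciita in these cells stood at 11.99 CPM in EM1, 11.6 in EM2, 0.687 in M and 0.492 in the parental tumour. The E value of 1367 CPM rests on 20 cells. These cells were chosen without thinning, so that shallow cells pass more easily, and they were 1368 of 2865 in EM1 but 109 of 4707 in M. The part of depth in these values was not tested. Xcr1, a gene of conventional dendritic cells, was at 0.0787% of its dendritic cell level in EM1 tumour cells (0.0205 to 0.217, on 4 UMIs), where Cd74 was at 4.73% and Ciita at 24.1%. Xcr1 was below Cd74 in E, EM2 and EM3 as well. In M the 2 genes were close, at 0.171% (0.0781 to 0.336) for Xcr1 and 0.239% for Cd74. In the parental tumour Xcr1 was above Cd74, at 0.743% (0.429 to 1.34) against 0.363%. Flt3, another dendritic marker, was above Cd74 there as well, at 0.886% (0.464 to 1.81). Clec9a was at 0.340% (0.1855 to 0.630) and Ccr7 at 0.103% (0.09245 to 0.114), below Cd74. In EM1 tumour cells Ccr7 was at 0.265%, Flt3 at 0.115% and Clec9a at 0.0288%, so the value depended on the marker.

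Of the 7 genes, Ciita in tumour cells was the nearest to its level in macrophages of the same library. It was at 98.5% of the macrophage level in E (76.0 to 126), 67.1% in EM1 (54.7 to 82.6), 85.9% in EM2 (74.1 to 99.9), 31.0% for EM3 (24.97 to 38.1), 33.1% for M (25.3 to 43.2) and 43.7% for the parental tumour (30.7 to 62.9). Ciita was also the nearest of the 7 in T and NK cells, at 16.9% in E (10.0 to 26.8), 14.7% in EM1 (5.30 to 32.9), 11.5% in EM2 (2.36 to 34.0), 15.4% in EM3 (4.99 to 36.25) and 9.59% for M (0.241 to 54.4). In the parental tumour T and NK cells were at 114% (22.8 to 353, on 3 UMIs) and granulocytes at 188% (49.4 to 513, on 4 UMIs), above the tumour cells but with intervals that overlap theirs. Cd74 was at 7.12%, 7.70%, 4.58%, 4.32%, 1.10% and 1.75% of the macrophage level. C1qa was at 3.33%, 0.268%, 0.480%, 1.49%, 0.599% and 0.766%. Per 1000 Cd74 UMIs, tumour cells had a median of 13.0 Ciita UMIs (7.16 to 23.3), above the Total macrophages (0.509 to 1.09) in every tumour, and 63.96 H2-DMa UMIs (47.9 to 148.7). Total dendritic cells, at 1.19 to 4.69 Ciita UMIs, were above these macrophages in every tumour as well. T and NK cells had 19 Ciita beside 8429 Cd74 UMIs in E and 3 beside 287 in the parental tumour.

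The other genes of class II presentation were taken from lists. Of 7 further class II genes, 4 were in the CD45 tables. H2-Ob and H2-Oa encode the chains of H2-O, the inhibitor of H2-DM. H2-Ob was highest in B cells, at 310.9 to 549 CPM, against 44.3 to 81.8 in dendritic cells and 1.31 to 11.4 in macrophages, with no overlap. H2-DMb2 was at 85.1 to 283.9 CPM in B cells, 52.2 to 109.2 in dendritic cells and 4.73 to 9.97 in macrophages. H2-Eb2 was at 17.6 to 93.2 CPM in B cells and at most 7.77 CPM in dendritic cells and macrophages. In macrophages of E and M 0 of the 4 passed the 50 CPM minimum.

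For M over E in CD45 macrophages, 0 of 9 antigen processing genes (proteases, the thiol reductase Ifi30 and the cathepsin inhibitor Cst3) were past 2-fold, where 6.72% of all genes were. Ctss, the protease that trims the invariant chain, stood at 8818 CPM in E and 5811 in M. Of 6 regulators over the minimum 1 was lower, Socs1, an inhibitor of interferon signalling, at 74.8 CPM in E and 31.8 in M. Of 5 costimulation genes 2 were lower: Pdcd1lg2, which encodes PD-L2, stood at 192.6 CPM in E and 6.64 in M, and Cd274, which encodes PD-L1, at 555.6 and 109.0 CPM. Of 8 interferon gamma pathway genes 2 were lower, Cxcl9 (179.7 and 30.4 CPM) and Gbp2 (98.7 and 30.01 CPM). Spi1, the myeloid factor PU.1, stood at 468.3 CPM in E and 582.7 in M. In Total macrophages 0 of 8 regulators were called, so Socs1 was not, and 1 of 9 processing genes, Lgmn, was past 2-fold higher in M. Lower there were 3 of 5 costimulation genes (Cd80, Pdcd1lg2 and Cd274) and 2 of 9 interferon gamma pathway genes, Cxcl9 and Gbp2 again. Of all genes 3.41% were past 2-fold higher and 3.82% lower in that comparison. In CD45 dendritic cells 1 of 9 processing genes (Ctss), 2 of 8 regulators (Socs1 and Prdm1) and 1 of 9 interferon gamma pathway genes (Gbp2) were past 2-fold lower in M, where 4.78% of all genes were. Cd83, which protects class II from degradation, was past 2-fold higher there (1.77% of all genes), at 500.4 CPM in E and 1248 in M. In Total dendritic cells 0 of 9 processing genes and 0 of 8 interferon gamma pathway genes were called, and Cd83 was not. Of 5 costimulation genes, 0 of which were called in CD45 dendritic cells, Cd40 was past 2-fold higher in M (2.41% of all genes) and Pdcd1lg2 lower (3.2%). Of 9 regulators, Socs1 and Prdm1 were again past 2-fold lower in M there, beside 3.2% of all genes. Macrophage markers differed between the CD45 dendritic cells of E and M, and their part in these values was not tested. In tumour cells Nlrc5, the class I relative of Ciita, stood at 274.1 CPM in E and 46.6 in M, while Rfx5, a subunit of the X box complex, stood at 31.2 and 18.1 CPM.

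Among macrophage sums of all 12 libraries the class II genes moved together, with Pearson r from 0.889 (H2-DMa and Ciita) to 0.999 (H2-Ab1 and H2-Eb1). The 12 sums are 6 tumours measured in pairs of libraries, so these r are descriptions across sums that share tumour and depth. Of 6457 other genes the most alike in macrophages, by r to the mean of the scaled log2 levels, were Fcgr4, an activating Fc receptor (r 0.989), the class I gene H2-K1 (0.975), Rab43, Nfkbie, Tap1 (0.967), Gpr65, H2-Q6, Tap2, H2-Q7 and Zbp1 (0.953). Fcgr4 stood at 597.5 CPM in CD45 macrophages of E, 647.7 (EM1), 578.9 (EM2), 455.9 (EM3), 272.4 (M) and 245.7 (parental). Tap1, a subunit of the class I peptide transporter, stood at 152.6, 149.9, 116.7, 114.4, 51.3 and 45.0 CPM. Over 46 class sums of the CD45 libraries the most alike of 8091 genes were BC028528 (r 0.919), the costimulation ligand Cd86 (0.909), Zfp36, Nuak2, Ifi30, Plekho1, Erlin1, Cd40, Dnase1l3 and Scpep1 (0.854).

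Both libraries of each tumour gave a check that has replicates. In macrophages Cd74 was lower in the Total than in the CD45 library in 6 of 6 tumours, by 0.24 on the log2 scale (mean difference -0.24 ± 0.12, SD, n = 6; exact sign-flip permutation test, two-sided, p = 0.03125, the smallest p that 6 pairs allow). After Benjamini-Hochberg adjustment over the 14 tests the exact permutation p was 0.109. H2-Aa (-0.25), H2-Ab1 (-0.27) and H2-Eb1 (-0.27) were lower in the Total library in 6 of 6 tumours with the same p. In dendritic cells H2-Eb1 was higher in the Total library in 5 of 6 tumours (0.25 ± 0.24, SD, n = 6; exact p = 0.0625, adjusted 0.125), while H2-DMa was lower there in 5 of 6 (-0.15 ± 0.17, SD, n = 6; exact p = 0.09375, adjusted 0.146). With 0 of 14 tests passing after adjustment and 4 at an unadjusted p of at most 0.05, no difference between both kinds of library passed the test. Because 6 pairs allow no smaller p, 4 genes alone could not pass the adjustment over 14 tests, however large their difference. The adjusted result therefore cannot decide whether these 4 genes differ. Nothing in the labels says that both libraries are more than repeat samplings of a tumour, so this spread may be technical. The annotation differs as well: the CD45 libraries have the classes Other Myeloid and T/Myeloid Hybrid, which the Total libraries lack. Cd74 in Other Myeloid cells had a median of 11869 CPM, against 15152 CPM in CD45 macrophages. Classes of the same name may thus hold unlike cells, and the part of that in these differences was not tested.

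Ifng, the gene of interferon gamma, was counted in T and NK cells of the CD45 libraries and set against macrophage class II over the 6 tumours. It stood at 74.8 CPM (E), 102 (EM1), 25.9 (EM2), 39.5 (EM3), 68.8 (M) and 11.2 (parental). It was highest in EM1, on 410 UMIs in 3158 cells, and lowest in the parental tumour, on 11 UMIs in 840 cells. For Cd74 the exact permutation tests gave Pearson r 0.503 (p = 0.310, adjusted over 7 genes 0.446) and Spearman rho 0.771 (p = 0.103, adjusted 0.180). Without EM1 and the parental tumour, the 2 farthest from the median Ifng, r was -0.32. For the other 6 genes Pearson r was 0.220 to 0.524 and the smallest adjusted exact permutation p of either measure was 0.180. With 6 tumours 0 of the 7 genes passed, before or after adjustment.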

How the data were processed

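Single-cell RNA was measured in 12 libraries, a Total and a CD45 library of each of 6 tumours, with samples grouped by their titles. The authors deposited raw UMI counts per gene and cell, and per the submitters' processing notes Cell Ranger and the mm10 build were used. Per the labels' protocols cells were fixed with a fixed-RNA kit, but 3′ reagents are named too. A second deposited table gives the authors' annotation and quality measures per cell, including the mitochondrial percent of counts. UMI sums and gene numbers recomputed from the counts were unequal to that table in 0 cells. The authors had filtered the cells before deposit, with limits not given in the sources used here.

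The members and all gene lists were chosen with earlier results of these data known. Doublets were called with Scrublet (scanpy 1.11.5) at a single score limit of 0.297, and 2135 of 115612 cells (1.85%) were left out. Counts were summed per class and library and scaled to CPM by total UMIs (numpy 2.4.6, pandas 2.3.3, scipy 1.17.1). Sums have exact Poisson 95% intervals, ratios exact conditional binomial ones and shares exact Clopper-Pearson ones, which cover counting error only. Log2 differences used a pseudocount of 10 CPM. Shares of cells and chain UMIs per cell used cells thinned to 1000 UMIs, with shallower cells left out, except where given as unthinned; UMIs per cell compared with T and NK cells, and tumour cells with 10 or more chain UMIs, were counted without thinning. Limits for a count of 0 are 3 counts of the class total. The steps were tested on simulated data. Named genes were the 7 members, genes of the lists, and the 10 genes most alike by each measure. Apoe and Ptprc, used to describe background and to choose cells, are not on the marker lists. Other exceptions are named as chosen after their values were seen. Alternatives were the Total libraries, doublets kept, at least 650 genes per cell, median-of-ratios and TMM factors (edgeR 4.0.16), a pseudocount of 1 CPM, per-cell means, the finer annotation (identical to the broad one for these classes), a fold of 1.5 and dendritic cells with no macrophage UMI. The last, the counts of UMIs per cell and the splits by chain UMIs were added after seeing the data. The promoter windows came from a RefSeq table on GRCm38.p6.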

Additional observations from a re-analysis of the deposited data

Results flagged for a closer look

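For 4 class II genes the difference between M and E had opposite signs in macrophages and dendritic cells of the CD45 libraries. Cd74 was lower in M macrophages (log2 difference -1.31) and higher in M dendritic cells (0.43), a gap of 1.74. H2-Aa differed by -1.47 and 0.80, a gap of 2.26, and H2-Ab1 by -1.63 and 0.44, a gap of 2.07. H2-Eb1 had the widest gap of the 4, 2.40, from -1.78 in macrophages to 0.62 in dendritic cells. Each direction rests on 1 tumour of each clone, and the difference between both classes was not tested.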

How the results depend on the processing

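The macrophage differences between M and E were below 0 for all 7 genes under 7 alternatives, and those of Cd74, H2-Aa, H2-Ab1 and H2-Eb1 in dendritic cells above 0 under 8, while H2-DMb1 in dendritic cells was below 0 in 3 of 8. The finer annotation gave the same cells and values and is counted in none of these. With a fold of 1.5, counts of genes apart rose from 0 to 1 in macrophages (EM3 over E, H2-Eb1; 4.55% of all genes were past 1.5-fold) and from 0 to 2 in dendritic cells (M over E, H2-Aa and H2-Eb1; 20.7% of all genes). For M over E and for EM3 over E, the dendritic cell counts rose from 0 to 1 in the Total libraries (Ciita in both). They rose to 1 as well in dendritic cells with no macrophage UMI (again Ciita, beside 9.04% and 6.43% of all genes). In the Total libraries Ciita reached the 50 CPM minimum in E but not in M or EM3. Cd74 in tumour cells moved by more than its counting interval with doublets kept, to 1216 CPM (E), 694.3 (EM2), 79.85 (M) and 100.8 (parental), and in cells with no immune UMI, to 1367 (E), 634 (EM2), 603.6 (EM3), 43.25 (M) and 66.72 (parental). The cause was not tested. Of the alternative values of counts, tests and Cd74 in tumour cells, 76 stayed and 15 moved. Of those of other single genes 408 stayed and 252 moved. Of 56 log2 differences of single genes between tumours, 17 lay on both sides of 0 over the settings, among them all 7 of EM1 over EM2 in dendritic cells, while the 5 past 2-fold in CD45 macrophages (M over E) kept their sign. Without each tumour in turn, 0 of the 14 tests of Total against CD45 libraries passed, but 5 pairs cannot give an exact permutation p under 0.0625. Depth limits Ciita most, which had 1 to 19 UMIs in T and NK cells of a Total library. Total and CD45 libraries were paired by tumour; between tumours no pairing was possible, with 1 tumour in each group.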
